A study of Mus musculus with 36 samples.

Results

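The genes described here are 10 genes that carry fatty acids or build and break down lipid droplets. They are the fatty acid binding proteins Fabp1, Fabp4 and Fabp5, the triacylglycerol synthases Dgat1 and Dgat2, the droplet proteins Plin2, Plin3 and Cidec, and the lipases Pnpla2 and Lipa. They were chosen by name, with earlier results of these data known, and each was found 1 time by its symbol among the 27562 genes measured. Their levels were followed in 36 RNA-seq libraries of lung alveolar macrophages (AΦ) and lung monocytes from mice that breathed filtered air (FA) or concentrated fine particulate matter (PM2.5) for 4-weeks or 32-weeks.

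Fatty acid binding proteins are small cytosolic proteins that bind long-chain fatty acids and deliver them inside the cell. Fatty acids that are not burned are esterified to triacylglycerol by the diacylglycerol acyltransferases and stored in lipid droplets, which are coated by perilipins and enlarged by CIDE proteins. The stored lipid is released again by cytosolic lipases at the droplet or, after uptake into lysosomes, by acid lipase. AΦ take up and break down surfactant lipid in the air spaces, and a lipid-rich cytoplasm is a known feature of these cells.

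The recipients were C57BL/6J males carrying CD45.2, aged 7 to 8 weeks at transplantation, which were irradiated with the chest shielded, given busulfan and transplanted with marrow of B6.SJL-Ptprca Pepcb/BoyJ mice, which carry CD45.1. All groups share this treatment, and there was no group without transplantation. CD45.2 AΦ are therefore tissue-resident (TR-AΦ) and CD45.1 AΦ are derived from bone marrow (BM-AΦ). The AΦ groups were TR-AΦ at 4-weeks, TR-AΦ at 32-weeks and BM-AΦ at 32-weeks, each after FA and after PM2.5. Monocytes of host type (CD45.2) were sampled at 4-weeks, and those of donor type (CD45.1) as well as host type at 32-weeks, again after both exposures. Nearly all circulating monocytes of these chimeras were of donor origin, so CD45.2 monocytes were those that the host still had. The later monocyte libraries carry the labels 1 and 2. They were taken to be donor and host type, as in the key for AΦ, and every statement on their origin rests on that reading. The host origin of all cells of 4-weeks comes from the description of the experiment. Each of the 12 groups had 3 libraries, numbered 0, 1 and 2, each from 1 mouse picked at random. Which libraries came from the same mouse is not given, so AΦ and monocytes of 1 number may or may not share an animal. The description names 3 mice for each exposure and time, so cell types and origins may share mice. They were tested as separate libraries, and p-values and intervals between them do not allow for shared mice.

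The values are FPKM, the fragments scaled to the length of the transcript and the size of the library, so levels of different genes can be compared per length. Library sums ran from 1839577 to 3339020 FPKM. Read depth is unknown, so no counting error can be given, and an exact 0 can be a failed estimate and is described as listed at 0. No pair of libraries held identical values. Of 12 AΦ markers 11 were in the table, and their summed level was 6670 to 14100 FPKM in the AΦ libraries and 281 to 1650 FPKM in the monocyte libraries. Ly6c2, a marker of classical monocytes, was at 0 to 16.5 FPKM in AΦ and at 127 to 516 FPKM in monocytes. The adipocyte hormone genes Adipoq and Lep did not exceed 0.0972 and 0.23 FPKM in any library. In bulk libraries of sorted cells, fewer cells that express a gene and less of its RNA in each cell cannot be told apart.

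All 10 genes were detected in every AΦ library. By their mean over the 18 AΦ libraries, the order was Plin2 at 383 FPKM, Lipa at 250 FPKM, Cidec at 130 FPKM, Pnpla2 at 94.7 FPKM, Fabp5 at 55.5 FPKM, Fabp1 at 39.4 FPKM, Dgat2 at 36.4 FPKM, Fabp4 at 34.5 FPKM, Plin3 at 31.3 FPKM and Dgat1 at 15.3 FPKM. Neighbours in this order had ranges that overlapped, except that the lowest value of Plin3 and the highest of Dgat1 met at 21.4 FPKM. The mean of Plin2 was at or above that of 98.6% of all genes in AΦ. In monocytes Plin2 was again the highest member with a mean of 108 FPKM, followed by Lipa at 70.1 FPKM and Pnpla2 at 54.8 FPKM. Fabp1 was listed at 0 in 12 of the 18 monocyte libraries and Cidec in 9 of them.

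**Figure D1:**
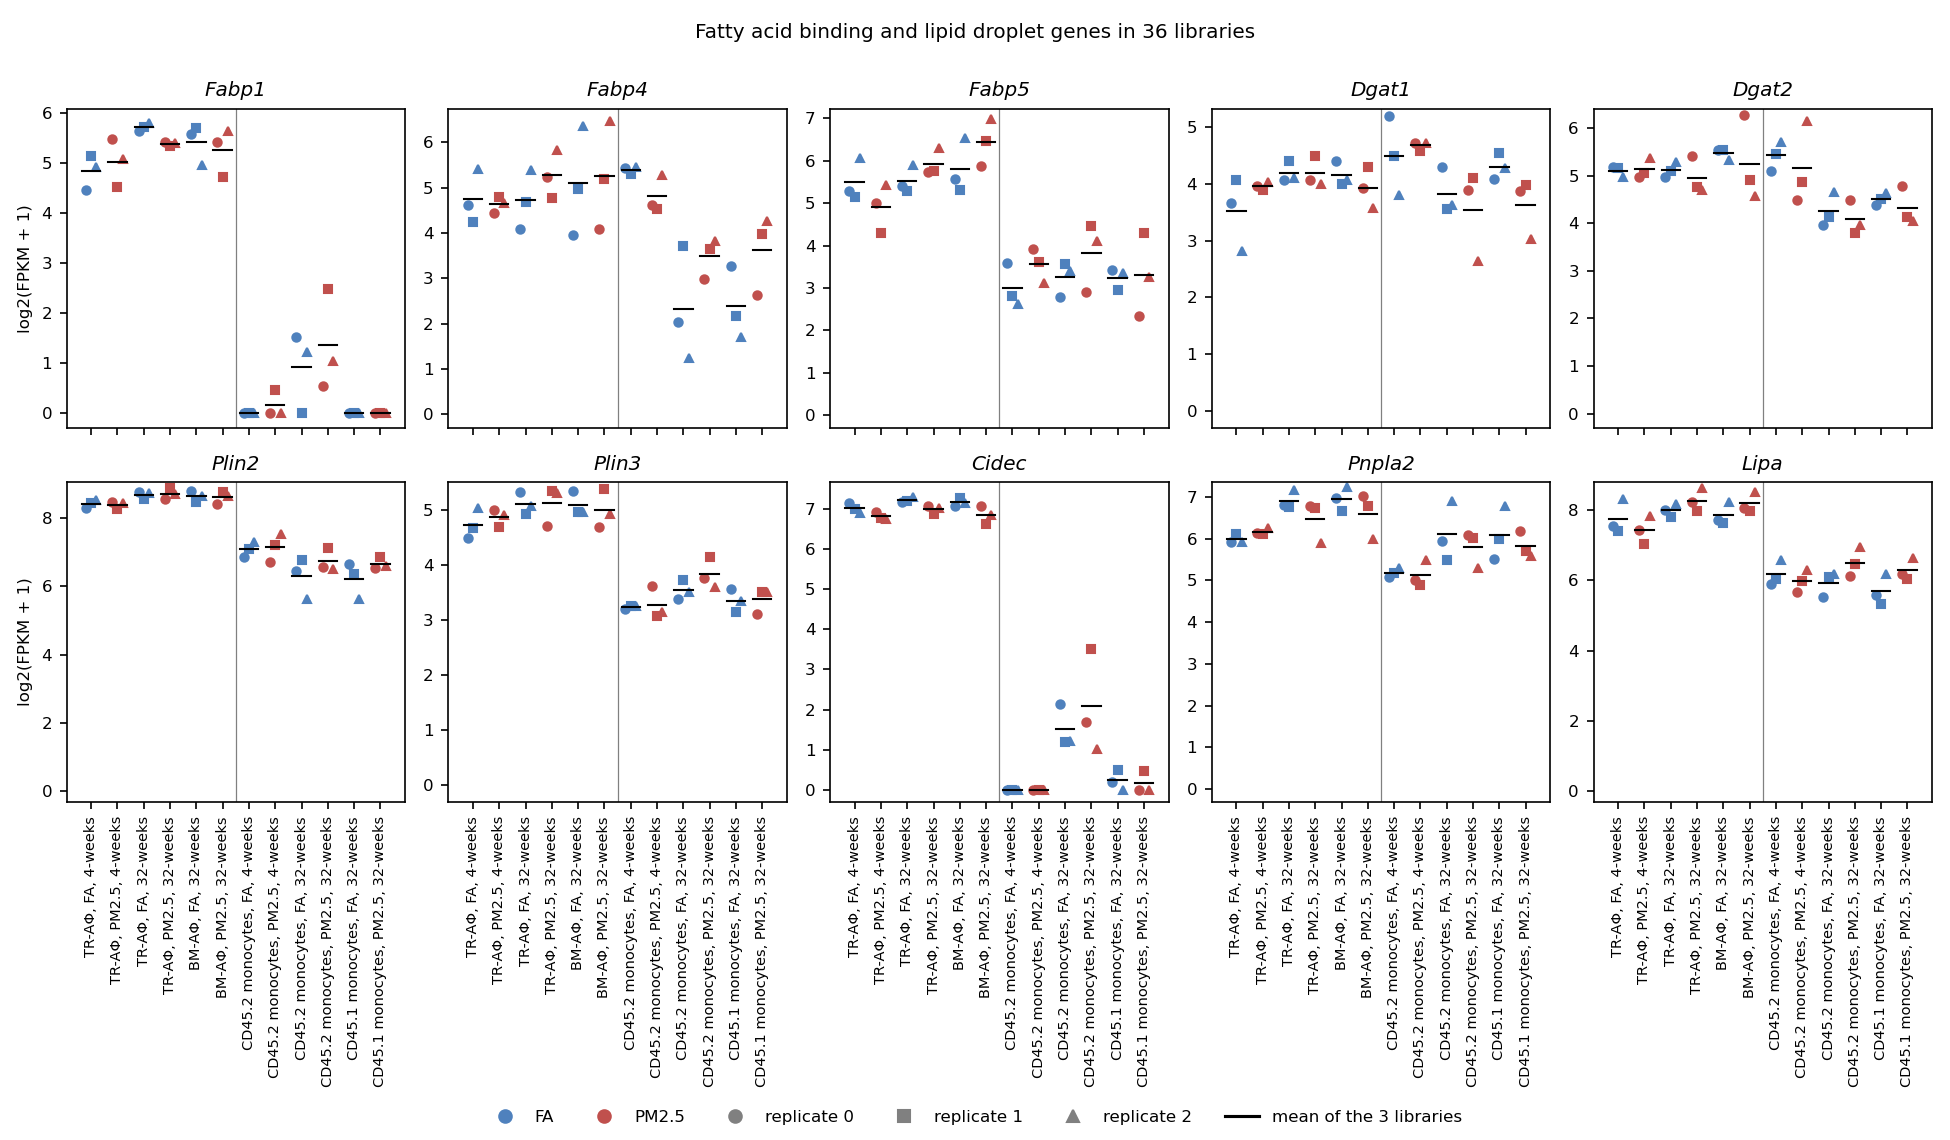
Level of each of the 10 genes in each library, as log2(FPKM + 1) on the vertical axis, with the 12 groups along the horizontal axis and AΦ to the left of the grey line. Blue points are FA, red points are PM2.5, the shapes give the replicate number and bars are group means. Fabp1 and Cidec lie near the bottom in all monocyte groups, and Fabp4 is lower in monocytes of 32-weeks than of 4-weeks.

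AΦ were first compared with monocytes, which asks which members differ between these phagocytes of the lung. The test was limma's, run on log2(FPKM + 1), and a gene was called at an adjusted p under 0.05 over all genes tested. At 4-weeks 7 of the 10 members were higher in AΦ, where 22.6% of all 13307 genes tested were called higher, and 1 was lower, where 25.5% were called lower. In 7 members the AΦ and monocyte libraries did not overlap, against 29.8% of all genes. At 32-weeks 9 of 10 members were higher and 0 lower, against 31.6% of all genes called higher and 29.4% called lower. At that time 6 members had no overlap between the cell types, against 18.4% of all genes. Fabp1 and Cidec are in these counts of higher members and of no overlap. Their means were 39.4 and 130 FPKM in AΦ and 0.536 and 1.15 FPKM in monocytes. They reached the minimum mean of 1 FPKM through AΦ, so their direction was all but fixed and their calls are a description. The median difference was 1.4 on the log2 scale over the members at 4-weeks and 2.05 at 32-weeks, where the medians of all genes were -0.02 and 0.02. All 9 calls of 32-weeks stood when the CD45.2 monocytes, chosen for this after the data were seen, were left out.

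**Figure D2:**
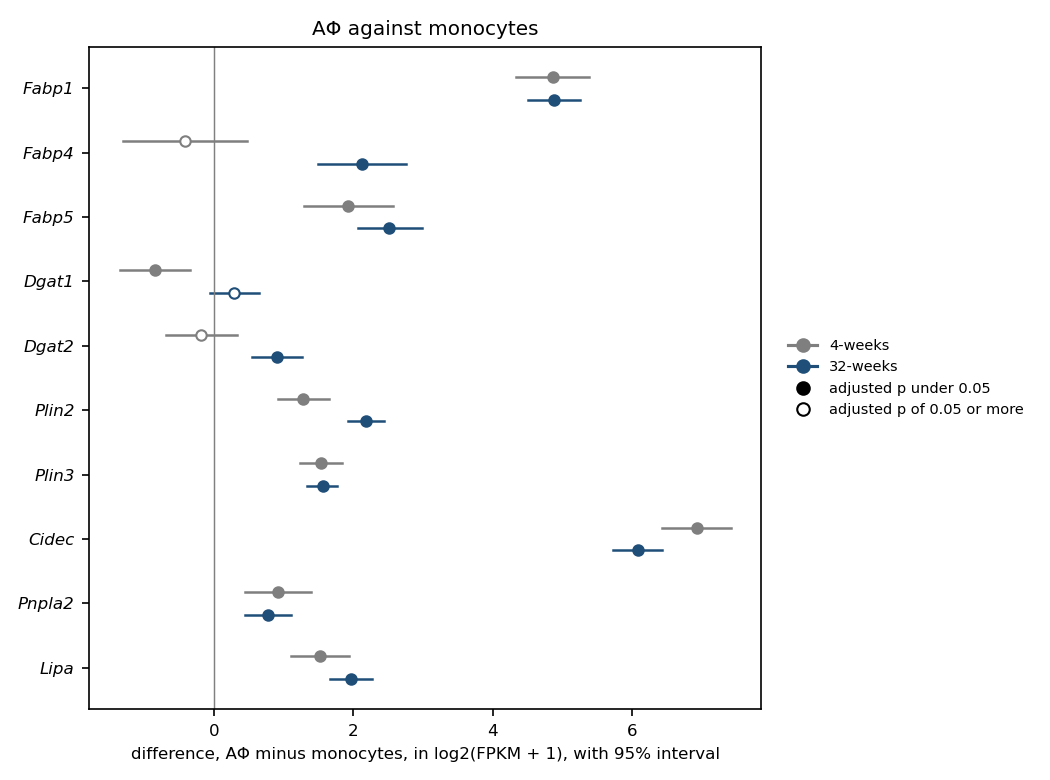
Difference between AΦ and monocytes for each gene in log2(FPKM + 1) on the horizontal axis, with the 95% interval, at 4-weeks in grey and 32-weeks in blue. Filled points passed the test. The differences of Cidec (6.93 and 6.08) and Fabp1 (4.86 and 4.88) stand apart from the rest, and Fabp4, Dgat1 and Dgat2 lie below 0 at 4-weeks, of which Dgat1 passed the test.

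Fabp1, the fatty acid binding protein best known from liver and intestine (chr6:71199827-71205023, plus strand, mm10), was at 21.1, 34.6 and 29.5 FPKM in TR-AΦ of FA at 4-weeks and at 44, 22 and 32.8 FPKM after PM2.5. Of the 6 monocyte libraries of 4-weeks, 5 were listed at 0 and 1 PM2.5 library had 0.377 FPKM. The cell types thus did not overlap, and the difference was 4.86 ± 0.255 (SE) in log2(FPKM + 1), with an adjusted p of 9.33e-15. At 32-weeks AΦ ranged from 25.4 to 54.8 FPKM around a median of 44.7 FPKM. All 6 CD45.1 monocyte libraries were listed at 0, while the CD45.2 monocytes were at 1.86, 0 and 1.33 FPKM after FA and at 0.447, 4.57 and 1.07 FPKM after PM2.5. Since so many libraries were at 0, the size of the fitted difference is set by the pseudocount, and no fold is given. Serum albumin (Alb), which marks hepatocytes, reached 12.3 FPKM in TR-AΦ of 4-weeks and 0.735 FPKM in AΦ of 32-weeks, while Fabp1 was at least 21.1 FPKM in each of these libraries. In monocytes of 32-weeks Alb was 0.261 to 12.7 FPKM in those with CD45.2, where Fabp1 was detected, and 0 to 0.266 FPKM in those with CD45.1, and its part in the Fabp1 values was not tested.

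The sequences before the starts of Fabp1, Cidec and Plin2 are shown because these members had the sharpest or, for Plin2, the most abundant expression in AΦ. They are RefSeq windows on GRCm38.p6, written 5′ to 3′ on the strand of the gene and ended before the start that GENCODE M21 gives, and capitals mark matches to the motifs searched. 
Fabp1 (chr6:71199629-71199826, plus strand): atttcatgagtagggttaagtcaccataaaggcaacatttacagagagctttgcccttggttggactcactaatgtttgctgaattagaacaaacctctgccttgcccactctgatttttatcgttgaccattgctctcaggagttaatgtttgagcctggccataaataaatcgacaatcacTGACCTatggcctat
Cidec (chr6:113435761-113436010, minus strand): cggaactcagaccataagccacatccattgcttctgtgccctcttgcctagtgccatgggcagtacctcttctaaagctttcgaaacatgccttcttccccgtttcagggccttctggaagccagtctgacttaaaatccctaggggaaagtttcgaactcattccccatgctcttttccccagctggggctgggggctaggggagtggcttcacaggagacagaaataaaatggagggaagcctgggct
Plin2 (chr4:86670061-86670309, minus strand): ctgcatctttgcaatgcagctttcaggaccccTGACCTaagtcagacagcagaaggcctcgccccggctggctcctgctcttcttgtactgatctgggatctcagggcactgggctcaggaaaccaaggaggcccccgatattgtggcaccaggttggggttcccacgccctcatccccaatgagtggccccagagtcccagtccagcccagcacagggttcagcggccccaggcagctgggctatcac
The motifs searched on both strands were AGGTCA, the core bound by nuclear receptors such as PPARs, TATAAA of the TATA box, the E-box CACGTG and GAGGAA, the core bound by PU.1. The letters TGACCT, the other strand of AGGTCA, were found 67 bases before the RefSeq start of Fabp1 and 218 bases before that of Plin2. A further TGACCT at 9 bases, TATAAA at 30 bases and GAGGAA at 45 bases before the Fabp1 start lie in the 52 bases that GENCODE places inside the gene and that are not printed. The printed Cidec window holds none of these letters. Windows of 250 bases with AGGTCA on either strand made up 14% of 32851 RefSeq windows, those with TATAAA 12.4%, those with CACGTG 6.02% and those with GAGGAA 23.3%. These matches are descriptions of the sequence, and binding was not measured. Windows were matched for 6 of the 10 members and not for Fabp4, Fabp5, Dgat1 and Dgat2.

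Fabp4, the binding protein of adipocytes and of macrophages under PPARγ (chr3:10204088-10208576, minus strand), did not follow Fabp1. At 4-weeks it was at 23.4, 17.9 and 41.5 FPKM in TR-AΦ of FA and at 42.5, 38.4 and 42.9 FPKM in the monocytes of FA. After PM2.5 it was at 20.8, 26.8 and 24.2 FPKM in TR-AΦ and at 23.7, 22.1 and 37.7 FPKM in monocytes. The cell types overlapped, and the difference of -0.41 ± 0.435 in log2(FPKM + 1) had an adjusted p of 0.465 and a 95% interval of -1.3 to 0.48. At 32-weeks Fabp4 was 14.6 to 88.2 FPKM in AΦ and 1.38 to 18.1 FPKM in monocytes, a 4.62-fold higher mean in AΦ. This difference of 2.13 ± 0.307 passed the test with an adjusted p of 9.96e-07, although the ranges overlapped.

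Fabp5, the epidermal type that macrophages also express (chr3:10012548-10016607, plus strand), was higher in AΦ at both times and did not overlap between the cell types at either. The means at 4-weeks were 38.4 FPKM in AΦ and 9.22 FPKM in monocytes, a 4.17-fold difference with an adjusted p of 9.14e-06. At 32-weeks the means were 64.1 and 10.6 FPKM, a 6.07-fold difference with an adjusted p of 1.16e-10. Fabp5 could share reads with Gm6166, a processed pseudogene whose 409 bases are 98.3% identical to the Fabp5 transcript. Gm6166 was listed with a mean of 38.4 FPKM in AΦ and 6.25 FPKM in monocytes, and since read assignments were not examined, the level of Fabp5 is uncertain.

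Dgat1 and Dgat2 catalyse the last step of triacylglycerol synthesis, Dgat1 mainly in the endoplasmic reticulum and Dgat2 also at the droplet surface. Dgat1 (chr15:76502015-76511951, minus strand) was the only member called lower in AΦ at 4-weeks, with 6.04 to 15.8 FPKM in AΦ and 13 to 35.5 FPKM in monocytes. The difference of -0.85 ± 0.245 in log2(FPKM + 1) had an adjusted p of 0.00545, and it was -0.5 with an adjusted p of 0.053 when each library was rescaled to the same sum. At 32-weeks the means of Dgat1 were 16.5 FPKM in AΦ and 14 FPKM in monocytes, and the adjusted p was 0.149. Dgat2 (chr7:99153658-99182719, minus strand) had means of 33.8 FPKM in AΦ and 41.2 FPKM in monocytes at 4-weeks, with an adjusted p of 0.589. At 32-weeks it was 1.99-fold higher in AΦ, at 37.7 against 19 FPKM, with an adjusted p of 6.4e-05 and overlapping ranges. Neither synthase was thus called higher in AΦ at 4-weeks, and the 95% interval of Dgat2 ran from -0.69 to 0.33.

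Plin2, the perilipin that coats droplets in cells other than adipocytes and is degraded when not bound to lipid (chr4:86656565-86670060, minus strand), was the most abundant member. In TR-AΦ of 4-weeks it was at 312, 347 and 365 FPKM after FA and at 353, 308 and 343 FPKM after PM2.5. The monocytes of 4-weeks were at 114, 135 and 157 FPKM after FA and at 104, 146 and 186 FPKM after PM2.5. No library of AΦ reached down to the monocytes, and the mean was 2.4-fold higher with an adjusted p of 8.19e-07. At 32-weeks AΦ ranged from 336 to 471 FPKM and monocytes from 48.3 to 137 FPKM, a 4.43-fold higher mean with an adjusted p of 2.04e-14.

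Plin3, a perilipin that moves from the cytosol to new droplets (chr17:56278962-56290511, minus strand), was 21.4 to 40.9 FPKM in AΦ and 7.46 to 16.8 FPKM in monocytes over both times. Its mean was 3.13-fold higher in AΦ at 4-weeks and 3.11-fold higher at 32-weeks, with adjusted p of 9.12e-10 and 3.48e-13. The cell types did not overlap at either time.

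Cidec, which fuses lipid droplets into larger ones (chr6:113424634-113435760, minus strand), separated the cell types most of all members. It was at 141, 129 and 119 FPKM in TR-AΦ of FA at 4-weeks and at 122, 109 and 107 FPKM after PM2.5, and it was listed at 0 in all 6 monocyte libraries of that time. The limma adjusted p was 3.92e-18, but Cidec reached the test through AΦ, so its calls between the cell types are a description. At 32-weeks AΦ ranged from 97.8 to 158 FPKM around a median of 136 FPKM. CD45.1 monocytes were at 0.147, 0.411 and 0 FPKM after FA and at 0, 0.369 and 0 FPKM after PM2.5. CD45.2 monocytes were above each of these, at 3.38, 1.28 and 1.32 FPKM after FA and at 2.23, 10.5 and 1.03 FPKM after PM2.5. The difference between the cell types at 32-weeks was 6.08 ± 0.17 in log2(FPKM + 1), with an adjusted p of 9.07e-21, and 6.88 against CD45.1 monocytes alone. With many monocyte libraries at or near 0, the sizes of these differences depend on the pseudocount.

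The lipases were also higher in AΦ. Pnpla2, the adipose triglyceride lipase that starts lipolysis at the droplet (chr7:141455198-141460743, plus strand), had means of 66.6 FPKM in AΦ and 34.9 FPKM in monocytes at 4-weeks, a 1.91-fold difference with an adjusted p of 0.00162 and no overlap. At 32-weeks the means were 109 and 64.7 FPKM, 1.68-fold apart with an adjusted p of 0.000188, and the ranges of 58.8 to 149 FPKM and 38.5 to 118 FPKM overlapped. Lipa, the lysosomal acid lipase (chr19:34492318-34527474, minus strand), was at 186, 168 and 319 FPKM in TR-AΦ of FA at 4-weeks and at 172, 131 and 226 FPKM after PM2.5. Its monocyte values at that time were 59, 64.7 and 94.4 FPKM after FA and 49.4, 61.6 and 77.9 FPKM after PM2.5. The AΦ libraries all lay above the monocytes, 2.95-fold higher by the mean with an adjusted p of 5.63e-07. At 32-weeks the means were 274 and 71.2 FPKM, 3.85-fold apart with an adjusted p of 3.63e-12 and no overlap.

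Other genes of the same pathways, 46 of which were in the table, were counted in the same way. At 4-weeks 33 were tested, of which 17 were higher and 5 lower in AΦ, beside 22.6% and 25.5% of all genes. The same number was tested at 32-weeks, with 22 higher and 4 lower, beside 31.6% and 29.4% of all genes. The 3 other fatty acid binding proteins in the table were too low to be tested at either time. The genes named by rule include Lpl, the lipoprotein lipase that frees fatty acids outside the cell, with means of 183 FPKM in AΦ and 6.55 FPKM in monocytes at 4-weeks. Its difference was 4.54 at 4-weeks and 4.51 at 32-weeks, with adjusted p of 3.92e-14 and 1.12e-17. Mgll, which hydrolyses monoacylglycerol in the final step of lipolysis, differed by 4.76 at both times, with 36.3 FPKM in AΦ and 0.444 FPKM in monocytes at 4-weeks. Its monocyte mean at 4-weeks was under the minimum of 1 FPKM, so its direction then was all but fixed. The call of Mgll, which is in the counts of higher genes, is therefore a description. Nceh1, a cholesteryl ester hydrolase of macrophages, was higher in AΦ by 3.65 at 4-weeks, and Cideb, a relative of Cidec, was higher by 3.41 at 32-weeks. Lipe, the hormone-sensitive lipase, ran the other way, with 3.59 FPKM in AΦ and 17.7 FPKM in monocytes at 4-weeks and a difference of -2.05. At 32-weeks its difference was -2.02. G0s2, an inhibitor of the lipase encoded by Pnpla2, had means of 6.43 FPKM in AΦ and 82.2 FPKM in monocytes at 4-weeks, with a difference of -3.52 and an adjusted p of 1.03e-09. Acsl3, an acyl-CoA synthetase of nascent droplets, differed by -1.09 at 4-weeks, and Lpin2, a phosphatidate phosphatase, by -0.88 at 32-weeks.

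BM-AΦ were compared with TR-AΦ at 32-weeks, which asks whether macrophages that arrived from the marrow differ from the resident ones. Of the 10 members 0 were called, where 0.316% of 12665 genes were, and 0 had an unadjusted p under 0.05 in limma, as had 944 of all genes. The differences ranged from -0.22 for Fabp1 to 0.4 for Fabp5. Cidec had means of 131 FPKM in BM-AΦ and 138 FPKM in TR-AΦ, and the 95% interval of the difference ran from -0.29 to 0.1. For Plin2 the means were 394 and 416 FPKM and the interval ran from -0.3 to 0.14. The interval of Fabp4, from -0.76 to 1.11, leaves room for a larger difference in either direction. Of the 34 other pathway genes tested 0 were called.

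TR-AΦ of 32-weeks were compared with TR-AΦ of 4-weeks, within each exposure. The mice of 32-weeks were also older, so exposure time and age cannot be told apart. In limma 0 members were called in FA, where 0.782% of all genes were, and 0 in PM2.5, where 1.05% were, with 3 members at an unadjusted p under 0.05 in each. At that unadjusted threshold were 1535 of all 12665 genes in FA and 1928 in PM2.5. In FA the median difference on the log2 scale was 0.25 over the members and 0.01 over all genes. Of the members 5 did not overlap between the times, against 15.6% of all genes. Pnpla2 had the largest difference in FA, from 59.2, 68.3 and 59.3 FPKM at 4-weeks to 111, 107 and 142 FPKM at 32-weeks. This was 1.93-fold by the mean, with an unadjusted p of 0.00356 and an adjusted p of 0.147 in limma. Fabp1 had means of 28.4 ± 6.84 FPKM at 4-weeks and 52 ± 2.72 FPKM at 32-weeks (SD, n = 3) in FA, with a limma adjusted p of 0.196, and Dgat1 differed by 0.67 with an adjusted p of 0.314.

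In PM2.5, 3 members did not overlap between the times, against 18.3% of all genes, and these were Fabp5, Plin2 and Lipa. Lipa was at 172, 131 and 226 FPKM at 4-weeks and at 297, 249 and 394 FPKM at 32-weeks, a difference of 0.83 ± 0.277 with an adjusted p of 0.17. Fabp5 differed by 1.01 with an adjusted p of 0.226, from 31.1, 18.7 and 42.3 FPKM to 52.3, 52.6 and 77.1 FPKM. Plin2 differed by 0.32, from 353, 308 and 343 FPKM to 373, 471 and 413 FPKM, with an adjusted p of 0.3. The test of whether the change over time differed between exposures called 0 members, with an adjusted p of 1 for each and 0.0079% of all genes called. Among the other pathway genes 0 of 34 were called in FA and 1 in PM2.5, beside 0.782% and 1.05% of all genes. The gene called was Srebf1, the regulator of fatty acid synthesis genes, which rose from 21.2 to 36.6 FPKM with an adjusted p of 0.0231. Whether Srebf1 keeps its call under other settings was not examined.

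**Figure D3:**
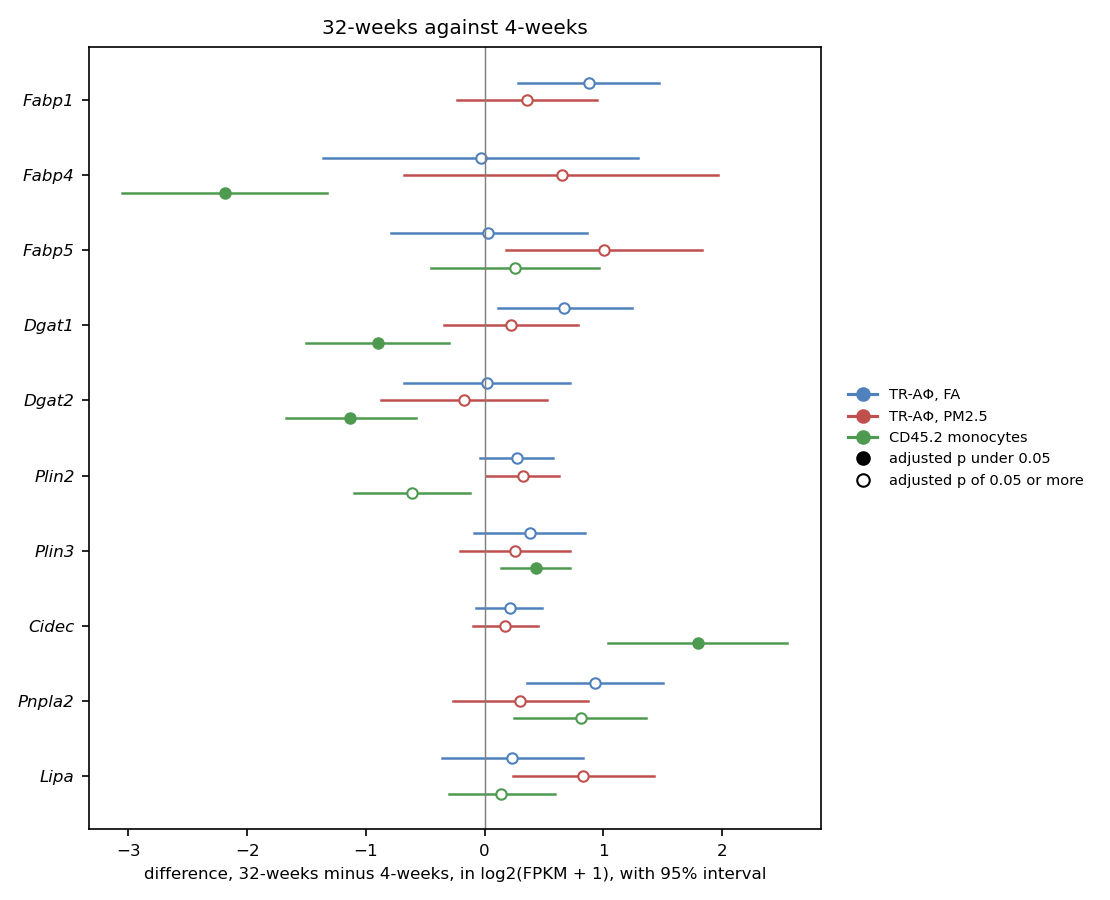
Difference between 32-weeks and 4-weeks for each gene in log2(FPKM + 1) on the horizontal axis, with the 95% interval, in TR-AΦ of FA (blue), TR-AΦ of PM2.5 (red) and CD45.2 monocytes of both exposures (green). Filled points passed the test. In monocytes Fabp4 (-2.19), Dgat2 (-1.13) and Dgat1 (-0.9) lie below 0 and Cidec (1.8) and Plin3 (0.43) above it, while no TR-AΦ point is filled. Fabp1 was too low in monocytes to be tested.

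CD45.2 monocytes of 32-weeks differed from those of 4-weeks in 5 of the 9 members tested, with Cidec counted, which reached the test only through the later group. Higher at 32-weeks were 2 members, where 7.06% of 12856 genes were called higher, and 3 were lower, where 7.83% were called lower. The times did not overlap for 2 members, Fabp4 and Cidec, against 7.72% of all genes. Fabp4 fell from 22.1 to 42.9 FPKM over the 6 libraries of 4-weeks to 3.09, 12.2 and 1.38 FPKM after FA and 6.95, 11.6 and 13.2 FPKM after PM2.5 at 32-weeks. Its mean was 4.28-fold lower, and the difference of -2.19 ± 0.402 had an adjusted p of 0.00234. CD45.1 monocytes of 32-weeks were also low in Fabp4, at 8.64, 3.48 and 2.27 FPKM after FA and at 5.17, 14.7 and 18.1 FPKM after PM2.5.

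Dgat2 fell from a mean of 41.2 to 17.4 FPKM with an adjusted p of 0.00838, and Dgat1 from 23.9 to 12.7 FPKM with an adjusted p of 0.0446. The highest Dgat2 values of 4-weeks were in replicate 2 of FA (51.5 FPKM) and of PM2.5 (70 FPKM). These libraries also had the most neutrophil transcripts, whose part in the Dgat2 values was not tested. With 1 library left out the limma adjusted p of Dgat2 ran from 0.00365 to 0.0258. Plin3 rose from 8.65 to 12.1 FPKM with an adjusted p of 0.045. The calls of Dgat1 and Plin3 were close to the threshold. Dgat1 was not called when 1 of 8 of the 12 libraries was left out, with adjusted p of 0.0683 to 0.105. These were replicates 0 and 1 of FA and all 3 of PM2.5 at 4-weeks, and replicates 1 and 2 of FA and replicate 2 of PM2.5 at 32-weeks. Plin3 was not called without 1 of 10 libraries, which were all but replicate 0 of PM2.5 at 4-weeks and replicate 2 of PM2.5 at 32-weeks, with adjusted p of 0.0548 to 0.116. Pnpla2 had an adjusted p of 0.0502, with means of 34.9 and 65.4 FPKM, and passed at 0.0242 without replicate 1 of FA and at 0.0321 without replicate 2 of PM2.5 at 32-weeks. It also passed with a pseudocount of 0.1 (0.0477), with quantile normalization (0.00948) and when rescaled (0.0206).

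Cidec was listed at 0 in each library of 4-weeks and was at 1.03 to 10.5 FPKM in CD45.2 monocytes of 32-weeks. Its mean over the 18 monocyte libraries was 1.15 FPKM, over the minimum of 1 FPKM only through that later group, so its values are given as a description and its call is no support for a change. Without replicate 1 of PM2.5 at 32-weeks, the library at 10.5 FPKM, it was not tested. Markers of macrophages moved with it. Summed over 7 markers of interstitial macrophages, the level was 4.43 to 423 FPKM at 4-weeks, 915 to 3390 FPKM in CD45.2 monocytes of 32-weeks and 326 to 1050 FPKM in CD45.1 monocytes of 32-weeks. The sum of the 11 AΦ markers was 430 to 707 FPKM, 405 to 1650 FPKM and 281 to 856 FPKM in these groups, and its highest value was in the library with the most Cidec and the most Fabp1 (4.57 FPKM). Of the 11 AΦ markers 9 had a higher median in CD45.2 monocytes of 32-weeks than in those of 4-weeks, and 9 than in CD45.1 monocytes of 32-weeks. Both times the exceptions were Ear2, with medians of 314 FPKM at 4-weeks, 151 FPKM in CD45.2 and 157 FPKM in CD45.1 monocytes, and Itgax, with medians of 13.6, 12.6 and 13.6 FPKM. Ear1 was 0 to 2.01 FPKM at 4-weeks, 14.3 to 80.1 FPKM in CD45.2 and 0 to 4.67 FPKM in CD45.1 monocytes of 32-weeks, beside at least 514 FPKM in AΦ. Siglecf was 0.179 to 1.62 FPKM, 1.36 to 8.99 FPKM and 0.282 to 0.763 FPKM in the same groups. The part of these macrophage transcripts in the values of Cidec and Fabp1 was not tested.

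Fabp4 is also made by the endothelium of small vessels and by adipocytes. The endothelial marker Cdh5 was 0.146 to 1.59 FPKM in monocytes of 4-weeks and 1.91 to 6.19 FPKM in CD45.2 monocytes of 32-weeks. The sum of 7 endothelial markers was 16.6 to 50.1 FPKM at 4-weeks and 13.3 to 37.3 FPKM at 32-weeks, and Pecam1, which leukocytes express too, was 12.7 to 47 FPKM and 5.12 to 10.5 FPKM. Cdh5 was thus higher and Pecam1 lower at the later time. Neutrophil markers summed to 23.3 to 1010 FPKM at 4-weeks, where replicate 2 of FA and of PM2.5 had 328 and 1010 FPKM, and to 8.66 to 39.7 FPKM in CD45.2 monocytes of 32-weeks. The part of endothelial or neutrophil transcripts in the Fabp4 values was not tested.

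Of the other pathway genes 30 were tested over time in CD45.2 monocytes, and 5 were higher and 2 lower at 32-weeks, beside 7.06% and 7.83% of all genes. Slc27a1, a fatty acid transporter, rose from 0.704 to 5.29 FPKM, Nceh1 from 18.4 to 42.9 FPKM and Lpl from 6.55 to 16 FPKM. The earlier mean of Slc27a1 was under the minimum mean for testing, so its rise is given as a description. Nceh1 and Lpl were also higher in AΦ than in monocytes, and macrophage markers were higher in the later CD45.2 monocytes. The part of macrophage transcripts in the higher values of these genes was not tested. G0s2 fell from 82.2 to 13.5 FPKM with an adjusted p of 0.000323. Pparg, the nuclear receptor that drives Fabp4 in macrophages and adipocytes, fell from 32.3 to 8.75 FPKM with an adjusted p of 0.00634. The part of Pparg in the Fabp4 values was not tested.

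Whether the change from 4-weeks to 32-weeks differed between TR-AΦ and CD45.2 monocytes was tested directly. Higher in this difference were 3 members, where 3.53% of all genes were called higher. Lower was 1 member, Cidec, where 4.35% were called lower. Fabp4 differed by 2.5 ± 0.615 in log2(FPKM + 1) with an adjusted p of 0.0101 and it was the member with the largest fall in monocytes. Dgat1 differed by 1.35 with an adjusted p of 0.0143 and Plin2 by 0.9 with an adjusted p of 0.024. Plin2 had means of 141 FPKM at 4-weeks and 94.3 FPKM at 32-weeks in the monocytes and was at 338 FPKM in TR-AΦ of 4-weeks and 416 FPKM in those of 32-weeks. Its call was lost without replicate 2 of FA (adjusted p of 0.0507) or of PM2.5 (0.0539) of the monocytes at 4-weeks, the libraries with the most neutrophil transcripts, and under both other scalings. Cidec differed by -1.61 with an adjusted p of 0.00299, and by -0.87 with an adjusted p of 0.0621 when libraries were rescaled to the same sum. With its monocyte libraries of 4-weeks all at 0, this size depends on the pseudocount, and the call is no support for a difference. Dgat2 differed by 1.05 with an adjusted p of 0.0659, and was called without replicate 0 of PM2.5 at 4-weeks, or replicate 2 of FA or replicate 0 of PM2.5 of the CD45.2 monocytes at 32-weeks, with adjusted p of 0.0253 to 0.046.

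CD45.2 and CD45.1 monocytes of 32-weeks were compared for 9 members, of which 0 were called, where 0.669% of all genes were. In limma 2 members had an unadjusted p under 0.05, Cidec and Plin3, as had 1233 of all 12856 genes. Cidec did not overlap between the origins and differed by 1.6 ± 0.354 with an adjusted p of 0.0599, but it reached the test only through the CD45.2 group. With 1 library left out its adjusted p ran from 0.0182 (without replicate 2 of PM2.5 of the CD45.2 monocytes) to 0.206, and without replicate 1 of PM2.5 it was not tested. Plin3 had means of 12.1 and 9.37 FPKM and an adjusted p of 0.428. Of the other pathway genes 0 of 30 were called.

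PM2.5 was compared with FA within each population, the comparison the exposure was designed for. In limma 0 members were called in each of the 6 populations. Over all genes 0.0079% were called in TR-AΦ of 4-weeks, 0% in TR-AΦ of 32-weeks, 0.0158% in BM-AΦ, 0.00778% in monocytes of 4-weeks, and 0% in CD45.1 and 0% in CD45.2 monocytes of 32-weeks. At an unadjusted p under 0.05, 1 member was found in BM-AΦ (Cidec), 1 in CD45.1 monocytes (Fabp4) and 0 in each of the other populations. Over all genes 259 of 12665 in BM-AΦ and 609 of 12856 in CD45.1 monocytes were at that unadjusted threshold. Exposures did not overlap for 2 members in TR-AΦ of 32-weeks (Fabp1 and Cidec), against 5.98% of all genes, for 1 in monocytes of 4-weeks (Fabp4), against 6.57%, and for 1 in CD45.1 monocytes (Dgat1), against 8.89%. Of the other pathway genes 0 were called in each population.

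**Figure D4:**
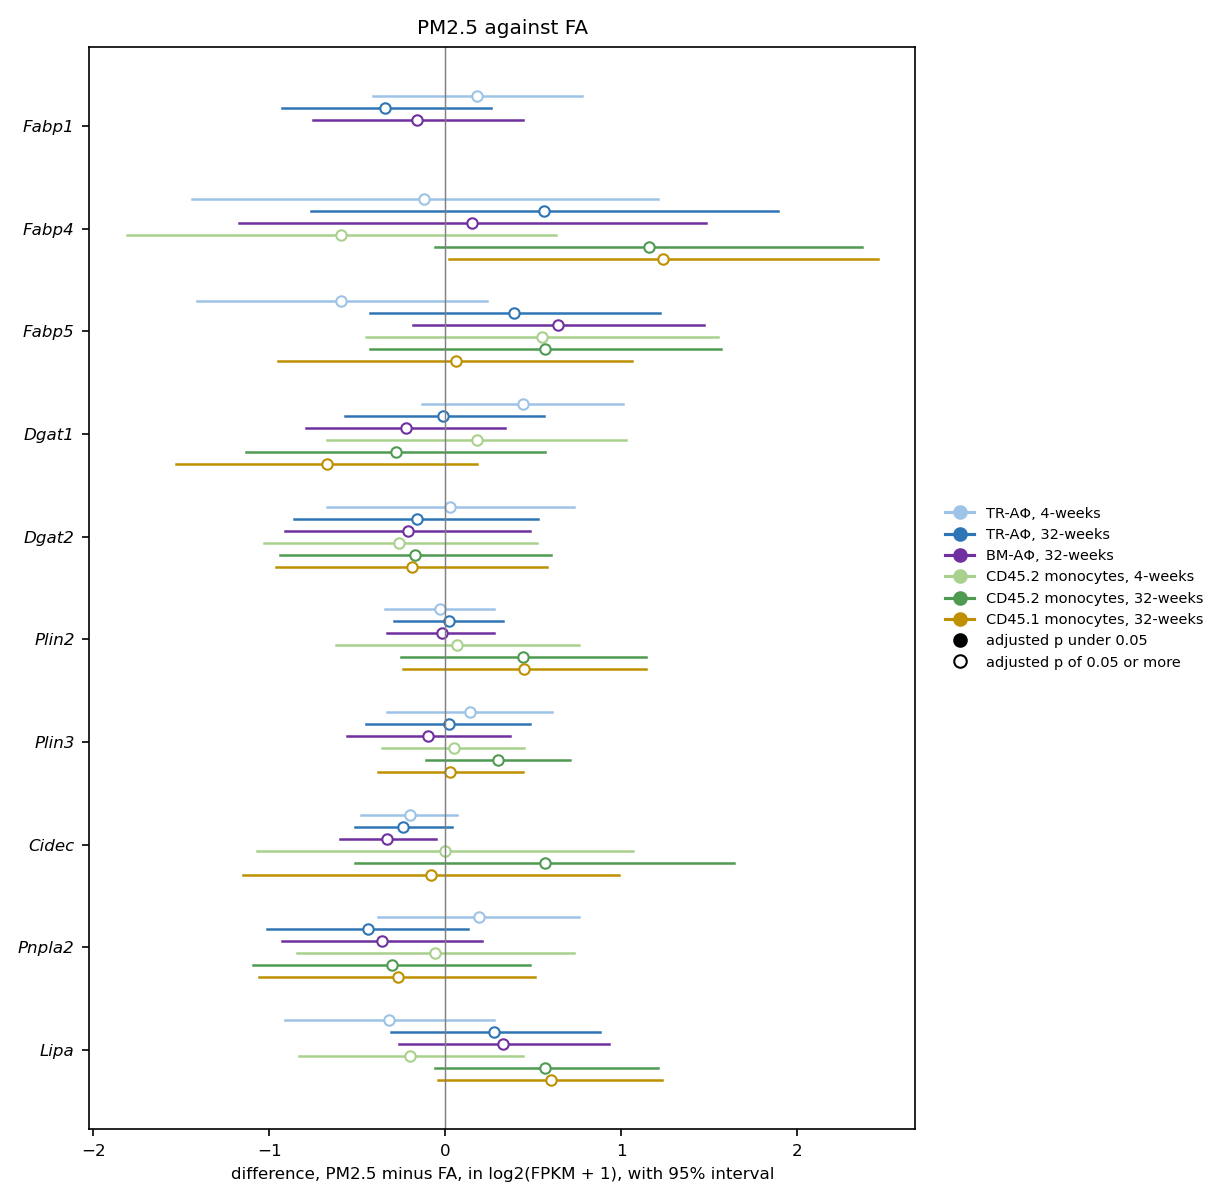
Difference between PM2.5 and FA for each gene in log2(FPKM + 1) on the horizontal axis, with the 95% interval, in the 6 populations given by colour. All points are open because none passed the test. The intervals of Cidec and Plin2 are the narrowest in AΦ, and those of Fabp4 are the widest.

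Cidec had lower means after PM2.5 in all 3 AΦ comparisons. In TR-AΦ of 32-weeks it was at 144, 147 and 158 FPKM after FA and at 134, 117 and 131 FPKM after PM2.5, which do not overlap, with a difference of -0.24 and an adjusted p of 1. In BM-AΦ it was at 135, 156 and 143 FPKM after FA and at 136, 97.8 and 115 FPKM after PM2.5, a difference of -0.33 ± 0.128 with an unadjusted p of 0.0239 and an adjusted p of 1. In TR-AΦ of 4-weeks the difference was -0.2, with a 95% interval of -0.48 to 0.07. These 3 comparisons do not share libraries, but BM-AΦ and TR-AΦ of 32-weeks may come from the same mice.

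Fabp1 of TR-AΦ at 32-weeks also did not overlap between the exposures, at 49.4, 51.9 and 54.8 FPKM after FA and at 41.8, 39.6 and 41.6 FPKM after PM2.5. The difference of -0.34 ± 0.277 had an adjusted p of 1, with the spread of the other AΦ groups included, and in TR-AΦ of 4-weeks it was 0.18 in the other direction. Plin2 differed by 0.02 in TR-AΦ and by -0.02 in BM-AΦ at 32-weeks, with a 95% interval of -0.29 to 0.33 and of -0.33 to 0.28. Fabp4 of CD45.1 monocytes differed by 1.24 with an adjusted p of 0.946, and in CD45.2 monocytes of 32-weeks by 1.16 with an adjusted p of 1. In both, replicate 2 had the lowest Fabp4 after FA (2.27 and 1.38 FPKM) and the highest after PM2.5 (18.1 and 13.2 FPKM). The other libraries of the 2 exposures overlapped. Lipa differed by 0.6 and 0.57 in the same monocytes, with unadjusted p of 0.0632 and 0.0729. The exposure effect was also compared between BM-AΦ and TR-AΦ, where 0 members and 0.0158% of all genes were called.

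Pnpla2 at 32-weeks varied with the replicate number. After FA its replicate 2 was the highest of the 3 in all 4 populations, at 149 FPKM in BM-AΦ, 142 FPKM in TR-AΦ, 108 FPKM in CD45.1 and 118 FPKM in CD45.2 monocytes. After PM2.5 replicate 2 was the lowest in all 4 populations, at 62.2, 58.8, 47.1 and 38.5 FPKM in the same order. The other AΦ libraries of 32-weeks were at 99.3 to 128 FPKM after either exposure. The lower mean of Pnpla2 after PM2.5 in TR-AΦ, 90.9 against 120 FPKM with an adjusted p of 1, and in BM-AΦ, 99.8 against 124 FPKM, had these libraries in it. In TR-AΦ the other libraries were at 111 and 107 FPKM after FA and at 108 and 106 FPKM after PM2.5. Dgat1 was lowest in replicate 2 of PM2.5 in all 4 populations too. Fabp4 was highest in replicate 2 of PM2.5 in all 4 populations. After FA, replicate 2 had the highest Fabp4 in 2 populations and the lowest in 2. Lipa was highest in replicate 2 in all 6 AΦ groups and all 6 monocyte groups, and Fabp5 in all 6 AΦ groups and in 0 monocyte groups. Red cell markers moved with that number too. At 32-weeks their sum was highest in replicate 2 in all 8 groups, at 17.7 to 85.7 FPKM beside 0 to 19.5 FPKM in the other libraries, and at 4-weeks it was lowest in replicate 2 in all 4 groups, at 0 to 1.31 FPKM beside 6.91 to 157 FPKM. The part of red cell transcripts, or of what else these libraries shared, in the values of Pnpla2, Fabp4, Lipa and Fabp5 was not tested.

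**Figure D5:**
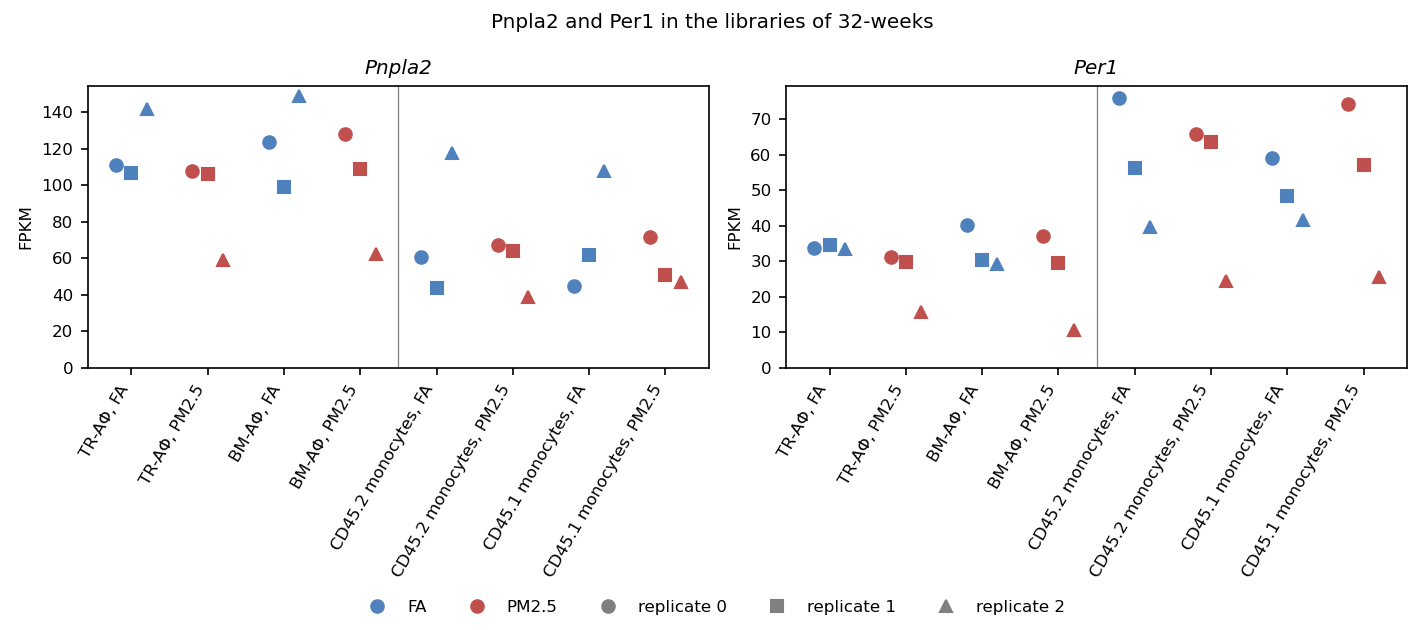
FPKM of Pnpla2 (left) and of the clock gene Per1 (right) in each library of 32-weeks, with AΦ to the left of the grey line, FA in blue, PM2.5 in red and the replicate number as the shape. Replicate 2 of Pnpla2 is the highest in each FA group and the lowest in each PM2.5 group. Replicate 2 of Per1 is the lowest in each FA group as well as in each PM2.5 group.

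The genes whose pattern over the 18 AΦ libraries was most like that of a member were found by Pearson's r of log2(FPKM + 1). The libraries share groups and replicate numbers, so r is a description. Pnpla2 was most like Per1 (r = 0.917), a clock gene that glucocorticoids also induce, and Fkbp5 (r = 0.887), a glucocorticoid target. Per1 was at 10.6 and 15.7 FPKM in replicate 2 of BM-AΦ and TR-AΦ of PM2.5 at 32-weeks. In the other AΦ libraries of that time it was at 29.3 to 40.3 FPKM. After FA its replicate 2 was the lowest too, at 29.3 FPKM in BM-AΦ and 33.3 FPKM in TR-AΦ. Replicate 2 of Fkbp5 at 32-weeks was the highest after FA, at 88.3 FPKM in BM-AΦ and 97.4 FPKM in TR-AΦ. After PM2.5 it was the lowest, at 20.9 and 21.6 FPKM. Lipa was most like Cd68 (r = 0.944), a glycoprotein of late endosomes and lysosomes, and Fabp5 like its pseudogene Gm6166 (r = 0.959) and B2m (r = 0.928), the light chain of MHC class I. Plin3 was most like Plin2 (r = 0.873), and Plin2 like Sel1l (r = 0.893), a part of the endoplasmic reticulum degradation machinery, and the proton pump subunit Atp6v0a1 (r = 0.876). Cidec was most like 0610010K14Rik (r = 0.806) and Acaa1b (r = 0.805), a peroxisomal thiolase. Fabp4 was most like Rcbtb1 (r = 0.912) and Ly9 (r = 0.9). For Fabp1, Dgat1 and Dgat2 the closest genes reached r of 0.833, 0.848 and 0.791.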

How the data were processed

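RNA of AΦ (sorted as CD64+ CD11c high CD11b low) and monocytes (Ly6G- MHC II- CD64 low CD11b high) was made into stranded libraries with a SMART-Seq kit. The authors trimmed the reads with TrimGalore, aligned them to mm10 with STAR and GENCODE, and computed 1 FPKM value per gene and library with Cufflinks. The strand setting of the counting is not given in the sources used here. FPKM are scaled for transcript length and library size, so composition differences between cell types remain in them. No counts were used, and low FPKM gave no whole reads.

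FPKM were analysed as log2(FPKM + 1), which understates changes of low genes, with limma 3.58.1 in R 4.3.3 (1 mean per group, variance trend, Benjamini-Hochberg over all genes tested, two-sided, threshold 0.05). A gene was tested where its mean in the libraries fitted together reached 1 FPKM, which left 12665 in the 18 AΦ libraries, 12856 in the 18 monocyte libraries and 13307 in all 36. All 10 members passed this in AΦ and over both, and 9 in monocytes. There were 16 comparisons, over libraries taken as unpaired. p-values measure the spread between libraries. The members and the lists of other genes were chosen with earlier results of these data known. All members are reported, and of the other pathway genes up to 3 per direction and comparison with the largest called difference and no overlap. For some of the comparisons the procedure was run on simulated data with independent libraries. That run cannot tell how it fares where libraries share mice or values are listed at 0. Alternatives were a pseudocount of 0.1, no filter, quantile normalization, rescaling of each library to the same sum, models of only the libraries compared, a replicate block and leaving out each library, and, chosen after the data were seen, leaving out the CD45.2 monocytes. Coordinates of genes are those of the deposited values on mm10, counted from 1. Figures were drawn with matplotlib 3.10.9.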

Additional observations from a re-analysis of the deposited data

Results flagged for a closer look

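The change from 4-weeks to 32-weeks differed between TR-AΦ and CD45.2 monocytes for 4 members in limma's test of the difference itself. It was 2.5 higher in TR-AΦ for Fabp4, 1.35 higher for Dgat1 and 0.9 higher for Plin2, and it was -1.61, so lower in TR-AΦ, for Cidec, all in log2(FPKM + 1). Fabp4 was -0.03 in TR-AΦ of FA and 0.65 in TR-AΦ of PM2.5 over time, against -2.19 in the monocytes. Monocytes of 4-weeks had no Cidec value above 0, so the size of its difference depends on the pseudocount. The call of Cidec is therefore no support for a difference. The CD45.2 monocytes of 32-weeks had higher macrophage markers, whose part in the difference was not tested. Exposure time and the age of the mice cannot be told apart.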

How the results depend on the processing

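The number of members called stayed within 1.5 times in 253 of 265 alternatives over 16 comparisons. For TR-AΦ of PM2.5 over time it was 2 in place of 0 with a replicate block (Fabp5, adjusted p of 0.0201, and Lipa, 0.00366). The block also called Pnpla2 over time in CD45.2 monocytes (0.0432) and Dgat2 in the difference in time between cell types (0.00427). For CD45.2 monocytes over time it was 3 with only the libraries compared, and 3 to 5 with 1 library left out. For CD45.2 against CD45.1 monocytes it was 1 (Cidec) with a pseudocount of 0.1 (adjusted p of 0.0281) or no filter (0.0402), and 0 to 1 with 1 library left out. For the difference in time between cell types it was 2 when libraries were rescaled to the same sum, without Plin2 (adjusted p of 0.193) and Cidec (0.0621). With quantile normalization Plin2 also lost that call (0.251), and Dgat1 lost its call over time in CD45.2 monocytes (0.104, and 0.0651 after rescaling). The difference of the exposure effect of Fabp4 between origins ranged from -1.02 to 0.23 with 1 library left out. Of 943 values of members under an alternative, 895 kept direction and side of the threshold, 31 lost their call, 15 gained one and 2 turned direction. The causes were not tested.

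Over all genes, rescaling moved the median difference between AΦ and monocytes to 0.17 at 4-weeks and 0.21 at 32-weeks, that of CD45.2 against CD45.1 monocytes to 0.11 and that of PM2.5 against FA in monocytes of 4-weeks to 0.13. Of the genes called between AΦ and monocytes, 47% were higher in AΦ at 4-weeks and 66.6% after rescaling, and 51.9% and 67.9% at 32-weeks. For the difference in time between cell types, 44.8% of calls were higher and 23.2% after rescaling. The calls over all genes between the times in TR-AΦ were 99 in FA and 133 in PM2.5, 14 and 18 with only the libraries compared, and 197 and 381 with the block. Between BM-AΦ and TR-AΦ they were 40, and 22 to 69 over the settings and 15 to 54 with 1 library left out. For CD45.2 against CD45.1 monocytes they were 86, with 52 to 149 over the settings, and for the difference in time between cell types 1049, with 719 to 1808. For PM2.5 against FA they were 0 to 2, and at most 11 over the settings.

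The replicate numbers were checked for pairing, and same-numbered libraries did not deviate together throughout. Their r was -0.0868 to 0.209 across exposures, with 4 of 18 pairs over 0.1. It was -0.0415 to 0.0932 across origins and -0.0161 to 0.0766 across cell types. Of the libraries 13 of 18 correlated best with their own number across exposures and 6 of 12 across times. The same held for 9 of 12 across origins and 10 of 18 across cell types. These matches are a hint from the data and not from the design. What the libraries of a block share beyond their number is not known. The number of reads behind each FPKM is unknown, which limits what can be said of members at or near 0.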
